A study of Mus musculus with 6 samples.

Results

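The genes described here are 10 genes of the oxidative and metal stress response, chosen by name from the table of counts: Hmox1, Nqo1, Gclm, Gclc, Slc7a11, Txnrd1, Srxn1, Mt1, Mt2 and Sod2. All 10 were found among the 56748 genes listed, and all 10 passed the filter on low counts, which kept 17146 genes for testing. The study asked how loss of gasdermin D (Gsdmd), the pore-forming protein of pyroptotic cell death, alters bone cells in osteoarthritis. RNA was sequenced from primary cells isolated as osteocytes from limb bones and cultured for 7 days, with 3 libraries labelled WT and 3 labelled cKO. The paper describes the isolation for C57BL/6 mice aged 7 weeks and names C57BL/6J and Gsdmd-deficient mice as sources of the cells. It gives no separate age for the Gsdmd-deficient mice at isolation. The cKO mice carried floxed Gsdmd alleles (Gsdmd fl/fl) and DMP1-Cre, a Cre recombinase driven by the promoter of Dmp1, a gene of the osteocyte lineage. The paper does not say whether the WT mice were littermates, so mouse line and Cre cannot be told apart from the loss of Gsdmd. Cultures of both genotypes had received lipopolysaccharide (LPS) at 10 ng/mL for 3 h and then aluminum hydroxide at 20 µg/mL for 3 h. Unstimulated cells were not analysed here, so every value compares the genotypes under the same stimulation and none shows a response to it. The sources do not say whether the libraries of a genotype came from separate animals, so p-values measure only the spread between these libraries, which may be technical.

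Cells exposed to electrophiles or oxidants stabilise the transcription factor NRF2 (Nfe2l2), which the adaptor KEAP1 otherwise marks for degradation, and NRF2 then binds antioxidant response elements near genes for heme breakdown, quinone reduction, glutathione synthesis, cystine uptake and thioredoxin recycling. Metallothioneins are small cysteine-rich proteins that bind zinc, copper and cadmium, and their genes are switched on through metal response elements by the zinc-sensing factor MTF1, and also by glucocorticoids and inflammatory cytokines. SOD2 is the manganese superoxide dismutase of mitochondria, and its gene is a classic target of NF-κB in cells stimulated with LPS or cytokines.

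The libraries held 39566835 to 49734046 counts, with a coefficient of biological variation of 8.36% over all tested genes. Levels are given as CPM, counts per 1000000 after scaling of the library sizes by the TMM method. Gsdmd itself lay at 13.5, 14.1 and 14.1 CPM in WT and at 21.0, 23.6 and 23.0 CPM in the libraries labelled cKO, a log2 difference of 0.69 (SE 0.083, adjusted p = 2.27e-06), so the targeted gene was higher where the label says it was deleted, and each direction given rests on that label. The X-inactivation transcript Xist was at 1127 to 1159 CPM in the libraries labelled cKO and at 0.0889 CPM or less in WT. The Y-linked genes Ddx3y, Eif2s3y, Kdm5d and Uty were at 0 in the libraries labelled cKO and at 28.6 to 109.9 CPM in WT. Sex and genotype thus cannot be told apart, although the paper states that its mice were matched for age and sex. Of 16 macrophage markers 14 could be tested and all 14 were higher in the libraries labelled cKO, with a summed level of 1158 to 1304 CPM in WT and 6279 to 6595 CPM in cKO, with a median log2 difference of 3.16. The most abundant of them, the lysozyme gene Lyz2 (log2 difference 2.20, SE 0.040) and Cd68 (2.47, SE 0.051), changed less than that median. Of 6 osteocyte markers only Pdpn could be tested and it was lower (−0.28, SE 0.041), while the defining markers Dmp1, Sost, Mepe, Phex and Fgf23 lay between 0 and 0.685 CPM in every library. Of the tested markers of other cell types, 2 of 2 for neutrophils, 2 of 6 for osteoclasts, 2 of 6 for osteoblasts, 6 of 7 for chondrocytes, 3 of 6 for fibroblasts and 1 of 5 for endothelial cells were higher, and 0, 3, 3, 1, 2 and 4 were lower, whereas 6 of 7 erythroid markers were at 0 in all libraries. The log2 differences of their 2 most abundant markers were 0.49 for Camp and 4.30 for Csf3r, −0.41 for Ctsk and −0.53 for Itgb3, −0.67 for Col1a1 and −0.09 for Col1a2, which did not pass, 1.90 for Comp and −0.84 for Col2a1, 0.45 for Pdgfra and −1.72 for Col14a1, and 2.04 for Kdr and −1.04 for Pecam1. Some of these levels were low. The neutrophil markers summed to 4.15 to 6.91 CPM in WT and to 9.65 to 11.7 CPM in cKO. The endothelial markers summed to 6.41 to 6.84 CPM in WT and to 6.32 to 6.71 CPM in cKO. What part sex or the macrophage markers had in the results was not tested. In bulk RNA fewer cells of a type and less RNA per cell cannot be told apart.

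Compared with WT, 8 of the 10 genes passed the test (adjusted p below 0.05), and they were split evenly: Slc7a11, Sod2, Srxn1 and Gclm were higher in the libraries labelled cKO, and Nqo1, Gclc, Txnrd1 and Hmox1 were lower. The libraries of the genotypes did not overlap for these 8 genes, and they overlapped for Mt1 and Mt2. Over all tested genes 39.3% passed, 20.1% higher and 19.2% lower, and 49.2% had no overlap between genotypes. The 10 genes are abundant, with mean levels of 142 to 1344 CPM against a median of 13.8 CPM over all tested genes, and of the 1301 genes at or above 142 CPM 71.5% passed, which is near the share of 8 in 10. Differences at least as large as a log2 of 1 were found for 6.56% of tested genes in the higher direction and 4.64% in the lower, and among the 10 genes for Slc7a11 alone. Of the 7 established NRF2 targets, 3 were higher and 4 lower, with a median log2 difference of −0.31, against 0.0077 over all tested genes.

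**Figure D1:**
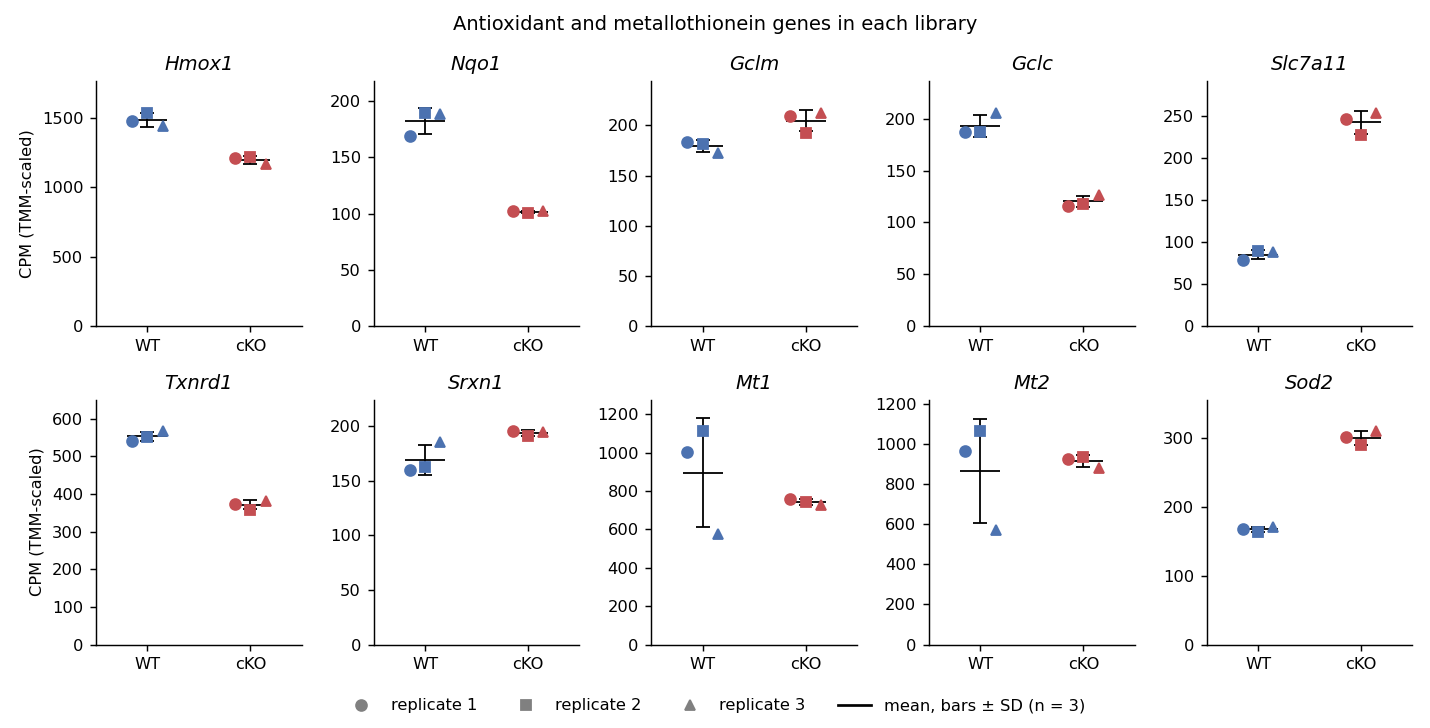
Level of each gene in each library in TMM-scaled CPM (y axis, each panel from 0) by genotype (x axis), with symbols for the replicates, a horizontal line for the mean and bars for ± 1 SD (n = 3). The groups are separate in 8 panels, and in those of Mt1 and Mt2 the third WT library lies apart at 576 and 573 CPM.

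Slc7a11 encodes the cystine-glutamate exchanger xCT, which brings in the cystine that limits glutathione synthesis. It lay at 79.1, 89.0 and 87.6 CPM in the WT libraries and at 247, 227 and 254 CPM in the libraries labelled cKO. Every cKO library was thus above every WT library by more than the whole range within either genotype. Its level was 2.85-fold higher (log2 difference 1.51, 95% confidence interval 1.40 to 1.62, SE 0.054, adjusted p = 2.33e-13), which placed it at rank 185 of the tested genes by p. Slc3a2, the heavy chain that carries xCT to the cell surface, was looked at after its values had been seen. It was at 152, 147 and 150 CPM in WT and at 247, 244 and 225 CPM in cKO (log2 difference 0.67, SE 0.045, adjusted p = 1.13e-09). The gene of Slc7a11 spans chromosome 3 from 49846975 to 50398063 on the minus strand (GRCm39, as all positions here). The genes that overlap Slc7a11, Gclm and Txnrd1 held at most 18, 48 and 73 counts in any library.

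The sequence upstream of Slc7a11 is shown because this gene changed most. In the RefSeq table (sequences of GRCm38.p6, each placed in GRCm39 by its single exact match) the 250 bases before the start held 0 antioxidant response element cores (TGACNNNGC, either strand). They held 2 copies of TGATGNAA, the core of the amino acid response element that ATF4 binds, in capitals and facing each other. That core was searched for after the sequence had been seen. It is present in 3.45% of the 32851 promoters of the table, and 13 of them hold 2 or more. A match describes letters in this window and is not a binding site. The stretch is chr3:50398064-50398312, minus strand, ending at the start of the canonical transcript. It overlaps 1 annotated exon of Slc7a11, so it is upstream of the canonical start but not of every annotated start.
Slc7a11: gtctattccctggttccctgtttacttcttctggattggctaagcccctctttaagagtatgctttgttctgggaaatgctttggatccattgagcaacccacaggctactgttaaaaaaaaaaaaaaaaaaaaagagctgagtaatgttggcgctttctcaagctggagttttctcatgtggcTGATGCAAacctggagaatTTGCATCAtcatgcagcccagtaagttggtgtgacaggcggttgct

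The 2 subunits of glutamate-cysteine ligase, which catalyses the rate-limiting step of glutathione synthesis, moved in opposite directions. The catalytic subunit Gclc (chromosome 9, 77661817 to 77701767, plus strand) was at 187, 187 and 206 CPM in WT and at 116, 118 and 127 CPM in cKO. All 3 cKO libraries were low, and the log2 difference was −0.68 (SE 0.050, adjusted p = 4.09e-09). The modifier subunit Gclm (chromosome 3, 122039206 to 122064381, plus strand), which raises the activity of the catalytic subunit, was at 184, 182 and 173 CPM in WT and at 209, 193 and 212 CPM in cKO. Its groups were separated by a narrow gap, between 184 and 193 CPM, and the log2 difference was 0.19 (SE 0.046, adjusted p = 0.003). Within each library, Gclc had 1.02, 1.03 and 1.19 counts per count of Gclm in WT and 0.554, 0.612 and 0.596 in cKO. The ratio needs no scaling between libraries, and it was lower in 3 of 3 cKO libraries by 0.87 on the log2 scale. With 3 libraries against 3 the two-sided exact permutation test cannot go below p = 0.1, which is the value it gave, also after adjustment over the 2 ratios computed.

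**Figure D2:**
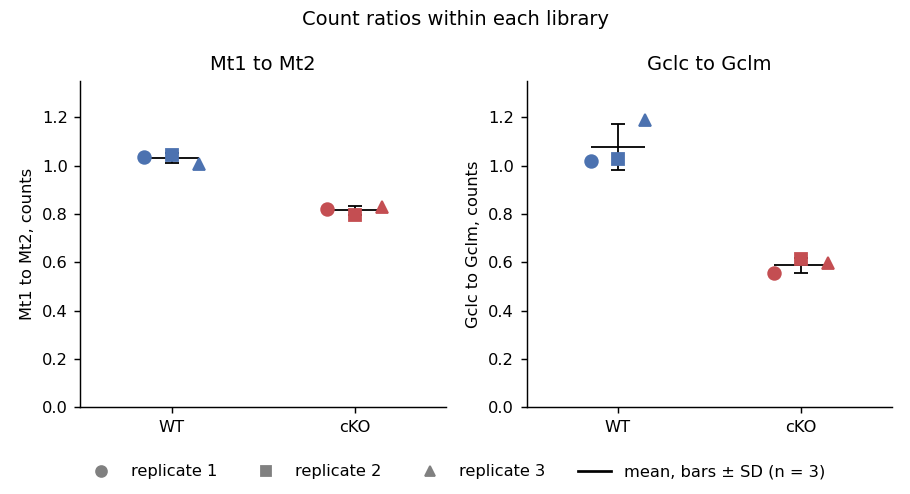
Ratio of the counts of Mt1 to Mt2 (left) and of Gclc to Gclm (right) in each library (y axes, from 0) by genotype, with symbols for the replicates, lines for means and bars for ± 1 SD (n = 3). Both ratios are lower in every cKO library, at 0.795 to 0.828 against 1.01 to 1.05 and at 0.554 to 0.612 against 1.02 to 1.19.

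Heme oxygenase 1 (Hmox1), which breaks heme down to biliverdin, iron and carbon monoxide, had the highest level per length of the NRF2 targets. It lay at 1482, 1537 and 1440.1 CPM in WT and at 1214, 1219.9 and 1168 CPM in cKO. The groups did not overlap, and the difference was small, with a log2 of −0.31 (SE 0.035, adjusted p = 1.1e-06). Hmox1 lies on chromosome 8 from 75820249 to 75827217 (plus strand). Nqo1 encodes the quinone reductase that is widely read as a marker of NRF2 activity, on chromosome 8 from 108114857 to 108129838 (minus strand). It was at 169, 189 and 189 CPM in WT and at 102, 101 and 102 CPM in cKO. It was the gene among the 10 that fell most, by 0.84 on the log2 scale (SE 0.049, adjusted p = 1.79e-10), with cKO libraries that lay within 2 CPM of each other.

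Thioredoxin reductase 1 (Txnrd1, chromosome 10, 82669785 to 82733546, plus strand), which keeps cytosolic thioredoxin reduced with electrons from NADPH, was at 542, 552 and 566 CPM in WT and at 373, 359 and 382 CPM in cKO. The groups were far apart compared with their ranges, and the log2 difference was −0.58 (SE 0.038, adjusted p = 1.05e-09). Sulfiredoxin (Srxn1, chromosome 2, 151947436 to 151953296, plus strand), which repairs overoxidised peroxiredoxins, was at 159.7, 163 and 185 CPM in WT and at 195, 191 and 195 CPM in cKO. The third WT library lay close to the cKO range, and the log2 difference was 0.20 (SE 0.052, adjusted p = 0.00565). This call was lost without WT replicate 1, where the log2 difference was 0.14 (adjusted p = 0.0749).

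The sequences upstream of Gclm and Txnrd1 are shown because each holds an antioxidant response element core while the genes moved in opposite directions. The core stands in capitals, here read on the opposite strand, and it occurs in 10.2% of the promoters of the table. Of the 10 genes, 8 are in the table (Hmox1 and Gclc are not), and 3 had the core, Gclm, Mt2 and one of the 3 listed promoters of Txnrd1, the only one in which the core is followed by A. The core of Mt2 lies inside its canonical transcript, and the 250 bases before the canonical start held 0. In Gclm the core shares 3 bases with a metal response element core (TGCACNC or TGCGCNC, either strand), so the capitals run on. No antioxidant response element core was found in these windows of Nqo1, Slc7a11, Srxn1, Mt1 or Sod2, which says only that these letters are not in them. The stretches are chr3:122038956-122039125 for Gclm and chr10:82694790-82695012 for Txnrd1, plus strand, each ending before the canonical transcript.
Gclm: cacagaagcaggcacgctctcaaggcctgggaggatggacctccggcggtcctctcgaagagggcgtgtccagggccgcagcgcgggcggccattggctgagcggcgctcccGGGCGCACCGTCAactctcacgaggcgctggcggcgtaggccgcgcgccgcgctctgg
Txnrd1: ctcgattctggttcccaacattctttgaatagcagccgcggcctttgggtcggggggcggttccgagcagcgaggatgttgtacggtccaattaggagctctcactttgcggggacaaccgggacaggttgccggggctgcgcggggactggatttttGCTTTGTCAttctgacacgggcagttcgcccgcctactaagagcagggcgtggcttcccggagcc

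Sod2 rose in the libraries labelled cKO. It lay at 168, 163 and 170.3 CPM in WT and at 301, 289 and 309 CPM in cKO. Both groups were tight, and the lowest cKO library stood far above the highest WT library. The log2 difference was 0.84 (95% confidence interval 0.76 to 0.93, SE 0.041, adjusted p = 1.75e-11), the largest rise after that of Slc7a11. The gene lies on chromosome 17 from 13225733 to 13258950 (plus strand).

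**Figure D3:**
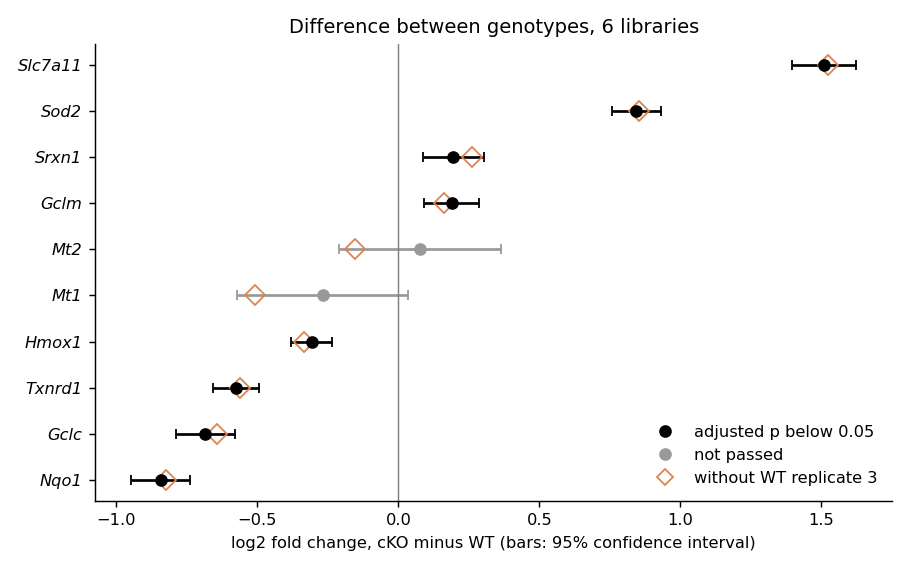
Log2 fold change, cKO minus WT, of the 10 genes (x axis) with 95% confidence intervals over 6 libraries, black where the adjusted p was below 0.05 and grey where not, and open diamonds for the estimate without WT replicate 3. The values run from −0.84 for Nqo1 to 1.51 for Slc7a11, and leaving out that library moves Mt1 from −0.27 to −0.51 and Mt2 from 0.08 to −0.15.

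The metallothionein genes Mt1 (94905710 to 94906955) and Mt2 (94899292 to 94900196), neighbours on the plus strand of chromosome 8, did not pass the test. Mt1 was at 1000.9, 1109.5 and 576 CPM in WT and at 758, 744 and 728 CPM in cKO. Mt2 was at 964, 1061 and 573 CPM in WT and at 923, 936 and 879 CPM in cKO. For both genes the cKO libraries were close together and fell inside the WT range, since WT replicates 1 and 2 were high and WT replicate 3 was low. The log2 differences were −0.27 for Mt1 (95% confidence interval −0.57 to 0.03, SE 0.143, adjusted p = 0.157) and 0.08 for Mt2 (−0.21 to 0.36, SE 0.136, adjusted p = 0.711), each with an SE above those of the other 8 genes. Without WT replicate 3 both genes were lower in cKO and passed, Mt1 with a log2 difference of −0.51 (adjusted p = 2.76e-10) and Mt2 with −0.15 (adjusted p = 0.00183), and all 10 genes then passed, 4 higher and 6 lower. Without WT replicate 2 the values were −0.092 for Mt1 (adjusted p = 0.632) and 0.24 for Mt2 (adjusted p = 0.149).

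WT replicate 3 also stood apart in other short transcripts. Among the 7148 autosomal genes with a mean of at least 20 CPM, Mt1 was 0.87 and Mt2 0.82 below the mean of the other WT libraries on the log2 scale, the 17th and 22nd lowest. Genes whose canonical transcript has at most 600 bases had a median deviation of −0.30 in that library (n = 61), those of 601 to 1000 bases −0.084 (n = 188), and those over 2000 bases 0.024 (n = 5985). The canonical transcripts of Mt1 and Mt2 have 762 and 748 bases, and they were the 5th and 7th lowest of the 188 in their class. The deposited gene lengths are 1246 bases for Mt1 and 588 bases for Mt2, so the class of Mt2 depends on the length that is taken. In the class up to 600 bases the first quartile of the deviations in WT replicate 3 was −0.64. Slc30a1, the zinc exporter that MTF1 also controls, has a transcript of 5282 bases and was low in the same library, at 27.7, 27.9 and 21.2 CPM in WT against 33.4, 35.3 and 34.5 CPM in cKO. Its deviation there was −0.39, the 79th lowest of all and the 22nd lowest of the genes over 2000 bases. MTF1 itself (Mtf1) was at 32.7, 33.0 and 36.2 CPM in WT, with a deviation of 0.14 in WT replicate 3. What part transcript length or MTF1 had in the low metallothionein values was not tested.

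**Figure D4:**
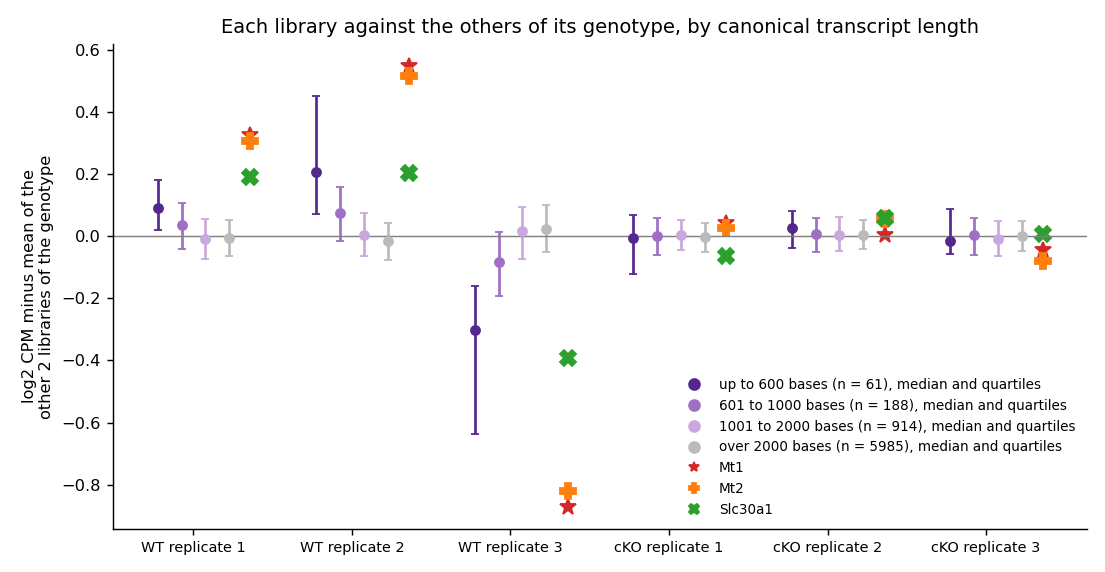
Deviation of each library (x axis) from the mean log2 CPM of the other 2 libraries of its genotype (y axis), as median and quartiles of genes in 4 classes of canonical transcript length, with Mt1, Mt2 and Slc30a1 as single symbols. In WT replicate 3 the class up to 600 bases has its median at −0.30, and Mt1, Mt2 and Slc30a1 lie at −0.87, −0.82 and −0.39, while the cKO libraries lie near 0.

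The ratio of the metallothioneins was steadier than either level. Mt1 had 1.04, 1.05 and 1.01 counts per count of Mt2 in WT and 0.821, 0.795 and 0.828 in cKO. WT replicate 3 was thus close to its group in the ratio, and no cKO library reached the WT range. The log2 difference was −0.34, lower in 3 of 3 cKO libraries, with p = 0.1 in the exact permutation test, the smallest it can give. Mt2 overlaps Gm45774, a long noncoding RNA on the opposite strand, and the sources used here do not state a strand setting of the counting for these libraries, so reads of the pair may not have been told apart. Gm45774 had 1670, 1994 and 964 counts in WT and 2484, 2417 and 2894 in cKO, against 22223 to 52658 for Mt2. Gm45774 was itself higher in cKO (log2 difference 0.84, SE 0.11, adjusted p = 1.02e-05). With its counts added to Mt2 the ratio was at least 0.965 in WT and at most 0.772 in cKO. Any reads assigned to neither gene are not restored by this sum, so it cannot show the effect of the strand setting. Mt1 and Mt2 are also paralogs, and how reads that fit both were counted is not stated.

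The sequences upstream of Mt1 and Mt2 are shown for their metal response element cores, in capitals. The core occurs in 21.4% of promoters of the table, and 5.17% hold 2 or more. The 250-base window of Mt1 held 1 and that of Mt2 held 3, beside 1 antioxidant response element core. These counts depend on the start that is taken. Before the 4 annotated starts of Mt2, in order of position, the 250 bases held 0, 2, 2 and 4 metal response element cores, with 2 before the canonical start. Before the other annotated start of Mt1, at position 94905869 of chromosome 8, the 250 bases held 5 metal response element cores and 1 antioxidant response element core. The stretches printed end before the canonical transcripts, so that of Mt2 shows 2 of its 3 cores. They are chr8:94905467-94905709 for Mt1 and chr8:94898996-94899131 for Mt2, plus strand.
Mt1: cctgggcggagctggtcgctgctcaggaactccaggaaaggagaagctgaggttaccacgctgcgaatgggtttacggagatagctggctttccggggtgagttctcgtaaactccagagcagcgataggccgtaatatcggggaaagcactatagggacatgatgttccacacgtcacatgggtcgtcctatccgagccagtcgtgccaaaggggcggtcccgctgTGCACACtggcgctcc
Mt2: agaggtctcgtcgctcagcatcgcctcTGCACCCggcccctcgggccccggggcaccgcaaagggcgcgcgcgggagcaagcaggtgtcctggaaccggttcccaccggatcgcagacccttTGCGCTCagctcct

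Levels can be set against each other only per length. In CPM per 1000 bases of the deposited gene length (RPKM), the WT order was Mt2 at 1473 ± 440.0 (SD, n = 3), Hmox1 at 849 ± 27.7, Mt1 at 719 ± 226, Nqo1 at 117 ± 7.42, Txnrd1 at 78.1 ± 1.72, Srxn1 at 60.0 ± 4.95, Gclc at 51.3 ± 2.84, Gclm at 28.5 ± 0.904, Sod2 at 16.7 ± 0.347 and Slc7a11 at 6.12 ± 0.386. Only Hmox1 and Mt1 overlapped as neighbours in that order. In cKO the first 3 were the same, followed by Srxn1 at 68.7 ± 0.889 RPKM, Nqo1 at 65.5 ± 0.568 and Txnrd1 at 52.4 ± 1.68. Gclm at 32.5 ± 1.67, Gclc at 31.9 ± 1.52 and Sod2 at 30.0 ± 1.00 overlapped, and Slc7a11 stayed lowest at 17.4 ± 0.985. The order depends on the length that is taken. With the length of the canonical transcript, which for Srxn1 is 7203 bases in place of 2820, Srxn1 was 9th in both genotypes at 23.5 RPKM in WT and 26.9 in cKO, where it overlapped Slc7a11 at 26.3, and Txnrd1 stood above Nqo1, at 166 against 68.3 in WT and 112 against 38.1 in cKO. The metallothioneins and Hmox1 led with either length, but Mt1 came first in WT, overlapping Mt2, and stood above Hmox1 in cKO, at 976 against 761. Hmox1, Mt1 and Mt2 together took 0.254% to 0.370% of all counts.

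Beyond the 10 genes, 8 lists of pathway genes held 146 genes, of which 133 were tested. Of these, 48 were higher, 31 lower and 54 did not pass, with a median log2 difference of 0.08. Among them 6 higher and 3 lower genes had a log2 of at least 1 in size. Over all tested genes 20.1% were higher and 19.2% lower, and of genes at or above 142 CPM 71.5% passed. Among the 15 regulators of the NRF2 pathway 6 were higher and 3 lower (median −0.04), and without WT replicate 3 the counts were 6 and 6. Nfe2l2 itself was at 255, 259 and 237 CPM in WT and at 233, 242 and 236 CPM in cKO, and the groups overlapped (log2 difference −0.08, SE 0.043, adjusted p = 0.159). It passed without WT replicate 3, with a log2 difference of −0.12 (adjusted p = 0.00914). Keap1, the adaptor that marks NRF2 for degradation, was higher (0.24, SE 0.050, adjusted p = 0.000852), and so was Bach1, a repressor that competes with NRF2 at its elements and that heme inactivates, at 43.9, 45.4 and 40.7 CPM in WT and 67.2, 67.2 and 65.9 CPM in cKO (0.62, SE 0.054, adjusted p = 3.67e-08). Bach2, a paralog of Bach1 named after its values were seen, was at 2.84, 3.85 and 2.55 CPM in WT. It was lower in cKO, at 2.09, 1.46 and 1.72 CPM (−0.81, SE 0.24, adjusted p = 0.0122). Among the small Maf partners, named after their values were seen, Mafg was higher (0.41, SE 0.045), Maff was lower (−0.70, SE 0.063) and Mafk did not pass (−0.13, SE 0.060, adjusted p = 0.0938), though it did without WT replicate 3 (−0.17, adjusted p = 0.0324). The autophagy receptor Sqstm1, itself an NRF2 target and also named after its values were seen, was lower (−0.42, SE 0.041).

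The list named heme degradation was higher in every tested gene while Hmox1 was lower. The list holds Hmox2, Blvra, Blvrb, Hpx, Hp, Cd163 and Slc48a1, so it also covers binding, uptake and transport of heme or hemoglobin. All 6 of its tested genes rose (median 0.63), and 5 passed without cKO replicate 3. Over all tested genes 20.1% were higher. Hmox2, the constitutive heme oxygenase of the list, was at 37.7, 42.4 and 46.7 CPM in WT and 50.9, 53.6 and 63.1 CPM in cKO (0.40, SE 0.082, adjusted p = 0.000645). The list on superoxide dismutases and catalase holds Sod1, Sod3 and Cat, and beside them Ccs, Park7 and Ucp2. Of these 6 genes, 4 were higher and 0 lower (median 0.29), and 3 to 4 passed under the alternatives. The extracellular dismutase Sod3 (0.45, SE 0.034) and catalase, Cat (0.55, SE 0.048), rose like Sod2, and Ucp2, an uncoupling-protein family carrier of the mitochondrial inner membrane, rose most (2.85, SE 0.063). The cytosolic dismutase Sod1 had a log2 difference of 0.07 (SE 0.050, adjusted p = 0.333). The macrophage markers rose in the same libraries, and their part in these lists was not tested.

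In glutathione synthesis, recycling and uptake 5 of 17 genes were higher and 5 lower (median 0.04). Glutathione reductase, Gsr, was higher (0.58, SE 0.059, adjusted p = 3.38e-07), as were the aminopeptidase Anpep (1.50, SE 0.046) and the gamma-glutamyl transferase family gene Ggt5 (1.96, SE 0.27). The dipeptidase Dpep1 was lower (−2.68, SE 0.11). Ggt1 was at 0.283 to 0.383 CPM in WT and at 0 in all cKO libraries, which makes it at least 4.59-fold lower when 0 is taken as 3 counts per library, a bound on counting error only. Among 22 tested glutathione peroxidases and transferases 8 were higher and 6 lower (median 0.12), with Hpgds, the hematopoietic prostaglandin D synthase, at 2.82, 3.43 and 2.11 CPM in WT and 31.0, 30.0 and 31.0 CPM in cKO (3.44, SE 0.13) and Gsta3 higher (1.50, SE 0.090).

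Among the 23 thioredoxin, peroxiredoxin and glutaredoxin genes 6 were higher and 7 lower (median −0.07). Prdx1, the abundant cytosolic peroxiredoxin, was lower at 952, 964 and 981 CPM in cKO against 1185, 1261 and 1186 CPM in WT (−0.33, SE 0.035, adjusted p = 6.27e-07), and thioredoxin, Txn1, was at 143, 149 and 127 CPM in WT and 159.9, 154 and 155 CPM in cKO (0.16, SE 0.054, adjusted p = 0.0215). Txn1 has a short transcript of 790 bases and was low in WT replicate 3. Its call was lost without that library (0.095, adjusted p = 0.0711) and without each cKO library (adjusted p 0.054 to 0.0866). Among 20 genes of NADPH and quinone metabolism 4 were higher and 5 lower (median −0.07). Of the 24 tested genes for metal response and zinc or copper transport 9 were higher and 5 lower (median 0.11). Mtf1 did not pass (0.09, SE 0.068, adjusted p = 0.321), and Slc30a1 was higher (0.42, SE 0.089, adjusted p = 0.000904). Slc30a1 was low in WT replicate 3, and without that library its log2 difference was 0.30 (adjusted p = 0.000926). The copper pump Atp7b was lower, at 6.11, 6.71 and 7.88 CPM in WT and 0.689, 0.830 and 0.792 CPM in cKO (−3.16, SE 0.21). The zinc transporter gene Slc39a12 was at 0.133 CPM or less in WT and at 0.356 to 1.13 CPM in cKO (3.16, SE 0.64, adjusted p = 0.000665).

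**Figure D5:**
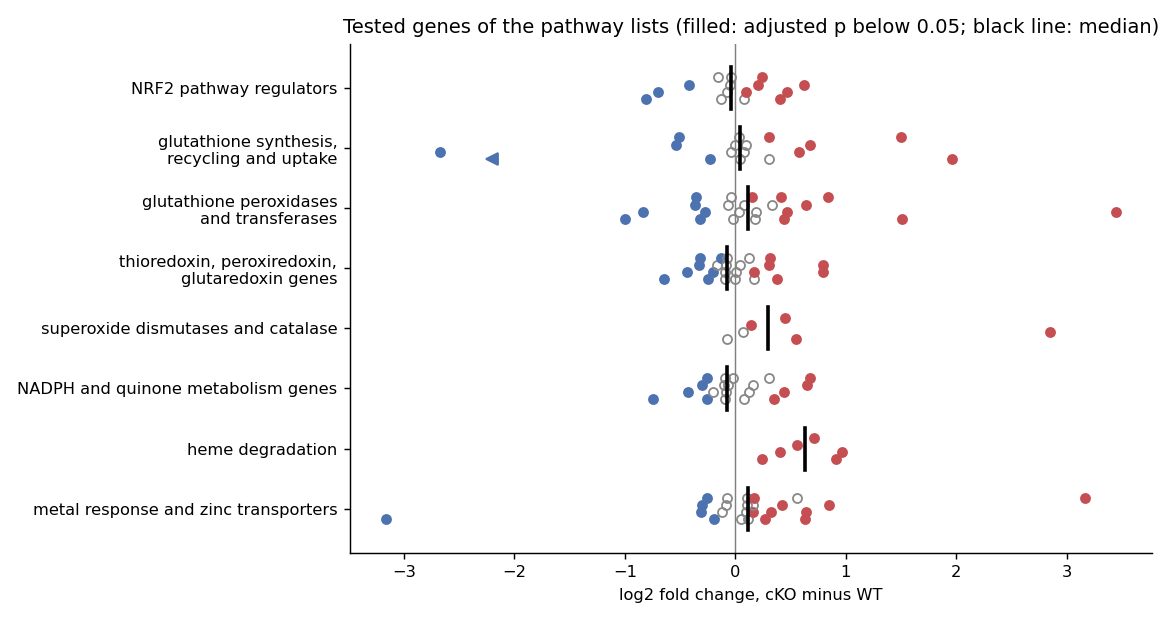
Log2 fold change, cKO minus WT (x axis), of each tested gene in the 8 pathway lists (y axis), filled red where higher and blue where lower at an adjusted p below 0.05, open where not passed, with a black line at each median and a triangle for Ggt1 at its bound. The medians run from −0.07 to 0.63, and the heme degradation list has all 6 of its genes above 0.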

How the data were processed

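RNA-seq libraries of stimulated primary bone cells, 3 WT and 3 labelled cKO, were analysed. Paired-end reads of 150 bp were trimmed by the authors, mapped to GRCm39 (mm39) by HISAT2 (version 2.0.5 in the submitters' processing notes) and assigned to genes by featureCounts, and the raw counts per gene were deposited with a gene length, neither normalized. A directional kit was used, and the strand setting of the counting is not given in the sources used here. Groups and replicate numbers came from the sample titles. All columns of counts matched a library.

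From the deposited counts, log2 fold changes (cKO minus WT) with their standard errors and p-values came from edgeR 4.0.16, run in R 4.3.3 (filterByExpr, TMM, glmQLFit without robust estimation, glmQLFTest, genotype as the only term), with Benjamini-Hochberg adjustment over the 17146 tested genes, and tested on simulated data. The ratios within libraries and the deviations by transcript length were chosen after seeing the data. Transcript lengths came from GENCODE M39. Alternatives were DESeq2 1.42.0, limma-voom (limma 3.58.1), robust estimation, 3 other scalings, 3 other filters, halved counts, the replicate number as a block and each library left out in turn. The replicate numbers did not pair the libraries. The 10 genes, the lists and the rule for named genes were chosen with earlier results of these data known. Named were the 10 genes, the listed pathway genes with a log2 of at least 1 in size (at most 4 per list), 12 regulators and enzymes whatever their values, and the 2 most abundant tested markers of each cell type. Slc3a2, Bach2, Mafg, Maff, Mafk and Sqstm1 were added after their values were seen. No set test was run.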

Additional observations from a re-analysis of the deposited data

How the results depend on the processing

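The log2 differences of Hmox1, Nqo1, Gclm, Gclc, Slc7a11, Txnrd1 and Sod2 kept their direction and passed under all 17 alternatives. Gclm passed narrowly with upper quartile scaling (0.12, adjusted p = 0.0470), and so did Srxn1 (0.13, adjusted p = 0.0495). Srxn1 ranged from 0.14 to 0.26 when 1 library was left out, and failed without WT replicate 1 (0.14, adjusted p = 0.0749). Mt1 ranged from −0.51 to −0.092 and Mt2 from −0.15 to 0.24. Without WT replicate 3 Mt1 passed (−0.51) and Mt2 changed direction (−0.15). Mt1 also passed without the filter on low counts (−0.27, adjusted p = 4.06e-12, over 27649 genes). In that setting the adjusted p fell for all 10 genes, for Slc7a11 from 2.33e-13 to 2.41e-214, with nearly unchanged log2 differences. The cause was not tested. The number of the 10 genes that passed lay between 7 and 10, and that of all genes between 5738 and 7093 against 6730. With upper quartile scaling 39.5% of the calls were higher, against 51.2%, and the median of all genes moved by −0.069. With the replicate number as a block 6396 genes and 8 of the 10 passed, and no call among the 10 changed. Deviations of same-numbered libraries had correlations of −0.0055, 0.0023 and −0.010, so the numbers do not pair the libraries. Higher and lower calls among the NRF2 regulators went from 6 and 3 to 6 and 6 without WT replicate 3 and to 5 and 6 with upper quartile scaling. That scaling gave 5 and 7 among glutathione peroxidases and transferases (8 and 6 before, 5 and 6 without cKO replicate 2), 4 and 8 in NADPH metabolism and 7 and 8 in metal response. The count of genes with an antioxidant response element core fell from 3 to 1 when the core had to be followed by A, and Mt2 moved from rank 1 to rank 2 in WT with canonical transcript lengths.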

Other observations

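The low values of WT replicate 3 were not restricted to the metallothioneins. Gapdh was lowest of all in that library against the other WT libraries (−1.77 on the log2 scale), at 233, 268 and 73.5 CPM in WT, and it also varied in cKO, at 80.6, 109 and 39.4 CPM. Gapdh was also called lower in cKO (log2 difference −1.33, SE 0.34, adjusted p = 0.00476), although the libraries of the genotypes overlapped. Gapdh has near-identical pseudogene copies, so its counts are uncertain. The ribosomal protein genes Rps29 (−1.19) and Rpl38 (−1.13) were the 8th and 9th lowest, with transcripts of 498 and 502 bases. Of the 7148 genes compared, 51 were lower by more than 0.5 in that library, and 20 of these had a transcript of at most 600 bases. In the other 5 libraries 1 to 15 genes were lower by as much.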
